A study of Mus musculus with 2 samples.

Results

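The transport of bile acids and other organic anions through the hepatocyte was examined in precancerous mouse liver through 10 genes, a list of names drawn up with earlier results of these data known: 4 uptake carriers, 2 canalicular pumps, 2 basolateral pumps and 2 nuclear receptors that regulate them. All 16 probe sets that the platform annotation gives to one of these genes alone were taken, of 34945 probe sets that name 1 gene, and all 10 genes were among the 11693 that passed a filter on dim signals. The wild-type array held RNA of liver labelled Pik3caTg;Kdm3aWT and the knockout array RNA of liver labelled Pik3caTg;Kdm3aKO. Both groups therefore carried the Pik3ca transgene, which the labels describe as specific to hepatocytes. It encodes the catalytic subunit of a phosphoinositide 3-kinase, and the groups differed in Kdm3a, a demethylase of histone H3 lysine 9. The labels give chow feeding and a light and dark cycle but no age, sex or number of animals, the Kdm3a allele is not described further, and a liver without the transgene was not analysed here. Each genotype was read on 1 Affymetrix array, so there was no test and no error between animals, the number of arrays limits the precision, and every difference describes these arrays and not the genotypes.

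Hepatocytes take bile acids up from sinusoidal blood through the sodium-coupled carrier encoded by Slc10a1 and through sodium-independent organic anion carriers of the Slco family, which also take up bilirubin, hormones and drugs. ATP-driven pumps then move bile salts (Abcb11) and conjugated anions (Abcc2) across the canalicular membrane into bile. Abcc3 and Abcc4 sit on the basolateral membrane, where they return anions to the blood and are known as an overflow route in cholestasis. The bile acid receptor FXR, encoded by Nr1h4, activates Abcb11 and Nr0b2, and Nr0b2 encodes the repressor SHP, which dampens bile acid synthesis and uptake.

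Promoters are shown for the uptake carriers, for Abcc4, which differed in the other direction, and for Abcb11, the pump gene best known as an FXR target. RefSeq promoter sequences (GRCm38.p6, from 250 bases before to 50 bases after each start) were found for 9 of the 10 genes. For Slc10a1 and Abcc4, which have 2 starts each in the table, the outer start is shown. Capitals mark matches, on either strand, to AGGTCA (the core that nuclear receptors recognise), GTTAAT (a core of HNF1 sites), TGACNNNGC (the antioxidant response element) or TTCNNNGAA (the STAT element). The sequences run 5′ to 3′ on the gene's strand, which is + for Slco1b2 and - for the others. They lie at chr12:80968656-80968955 (Slc10a1), chr6:141946913-141947212 (Slco1a1), chr6:141856171-141856470 (Slco1a4), chr6:141629268-141629567 (Slco1b2), chr2:69342567-69342866 (Abcb11) and chr14:118706170-118706469 (Abcc4).
Slc10a1: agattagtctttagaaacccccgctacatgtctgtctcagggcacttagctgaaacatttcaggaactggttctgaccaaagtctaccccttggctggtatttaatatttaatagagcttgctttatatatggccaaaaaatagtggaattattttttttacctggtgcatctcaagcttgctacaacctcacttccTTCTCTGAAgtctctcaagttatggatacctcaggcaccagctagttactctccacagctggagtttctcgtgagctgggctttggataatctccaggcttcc
Slco1a1: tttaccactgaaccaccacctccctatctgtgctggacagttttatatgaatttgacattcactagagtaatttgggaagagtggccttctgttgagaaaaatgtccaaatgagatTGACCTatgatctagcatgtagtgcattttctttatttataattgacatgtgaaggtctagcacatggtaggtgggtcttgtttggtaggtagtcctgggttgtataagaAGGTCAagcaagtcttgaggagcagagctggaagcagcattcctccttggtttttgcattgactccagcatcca
Slco1a4: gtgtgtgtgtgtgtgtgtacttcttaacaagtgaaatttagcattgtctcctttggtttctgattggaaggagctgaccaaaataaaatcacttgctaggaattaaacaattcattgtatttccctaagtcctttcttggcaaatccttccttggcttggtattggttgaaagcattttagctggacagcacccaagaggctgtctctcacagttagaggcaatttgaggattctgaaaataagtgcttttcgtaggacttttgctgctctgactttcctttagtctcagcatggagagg
Slco1b2: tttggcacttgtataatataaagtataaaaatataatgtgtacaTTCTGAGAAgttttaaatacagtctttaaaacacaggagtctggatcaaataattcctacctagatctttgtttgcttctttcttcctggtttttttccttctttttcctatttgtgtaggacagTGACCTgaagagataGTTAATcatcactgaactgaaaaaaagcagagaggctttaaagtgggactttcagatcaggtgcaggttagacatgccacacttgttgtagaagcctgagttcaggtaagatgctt
Abcb11: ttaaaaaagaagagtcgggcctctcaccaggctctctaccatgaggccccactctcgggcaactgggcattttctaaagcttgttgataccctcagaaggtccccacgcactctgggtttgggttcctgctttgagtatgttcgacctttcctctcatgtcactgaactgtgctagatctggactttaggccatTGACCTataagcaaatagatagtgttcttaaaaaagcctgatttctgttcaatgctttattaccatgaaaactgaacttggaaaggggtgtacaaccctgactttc
Abcc4: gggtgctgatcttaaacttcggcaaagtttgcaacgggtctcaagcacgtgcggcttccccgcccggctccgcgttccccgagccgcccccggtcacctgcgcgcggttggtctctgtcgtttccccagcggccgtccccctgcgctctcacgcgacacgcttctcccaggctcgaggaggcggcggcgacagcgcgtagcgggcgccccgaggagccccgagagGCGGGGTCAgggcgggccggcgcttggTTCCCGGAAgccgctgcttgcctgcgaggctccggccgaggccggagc

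The Abcc4 promoters at the outer and inner start differed in base composition. The outer one was 72.7% G or C and held 41 CG dinucleotides, and the inner one, at chr14:118676882-118677181 and not printed, was 47.3% with 6, against medians of 52.7% and 7 over the 32851 promoters of the table. The promoters printed for the uptake carriers were 35.3% to 43.0% G or C and held 0 to 2 CG dinucleotides, and that of Abcb11 was 45.3% with 4. Matches to these motifs are given for all 11 promoters of the 9 genes, printed or not. The AGGTCA core occurred at positions -134 to -129 and -24 to -19 relative to the start in Slco1a1, at -81 to -76 in Slco1b2 and at -56 to -51 in Abcb11. It also occurred in Abcc2, Nr1h4 and the inner Slc10a1 promoter, and in 16.3% of all promoters. The antioxidant response element was matched in Abcc4 at -25 to -17, in its inner promoter at -23 to -15, in Abcc2 at -98 to -90, and in 12.4% of all promoters. The STAT element was matched in Slc10a1 at -53 to -45, in Slco1b2 at -206 to -198, in Abcc4 at 2 to 10 and in Nr0b2 at -91 to -83, against 8.30% of all promoters. GTTAAT was matched in Slco1b2 at -66 to -61 and in Nr1h4 at -40 to -35, against 7.10% of promoters. None of these letters were found in the Slco1a4 window. The full inverted repeat AGGTCANTGACCT and direct repeat AGGTCANAGGTCA, which contain the AGGTCA core, and the full HNF1 site GTTAATNATTAAC matched none of the member promoters and 3, 13 and 3 of all promoters. A match describes letters and not a bound site.

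Kdm3a had a signal of 719.9 on the wild-type array and 61.6 on the knockout array, in the direction of the labels. Whether its 1 probe set lies inside the deleted part is not known here. Signals are the deposited linear values, and ratios are log2 of knockout over wild type. The tissue label could be checked on hepatocyte markers: 12 of 12 measured had signals from 8511 to 72444 and positive ratios, with a median of 0.40 and a range of 0.18 to 1.22. The expression controls for 18S ribosomal RNA were 1.74 to 1.89 times as bright on the knockout array, while the ratio of 3′ to 5′ signal was 0.701 and 0.654 for Gapdh and 1.85 and 1.99 for beta-actin on the wild-type and knockout arrays. The part of these array differences in the results was not tested.

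All 4 uptake carriers had positive ratios, and 3 of them were at least 2-fold higher on the knockout array. Abcc4 was at least 2-fold lower. The carrier Slco1b2, the other pumps and both regulators lay within 2-fold. Of the 10 genes, 3 were at least 2-fold higher, namely Slco1a1, Slco1a4 and Slc10a1, and 1, Abcc4, was at least 2-fold lower. Among all 11693 genes, 3.83% were at least 2-fold higher and 8.96% at least 2-fold lower. The members were bright genes, and 7 of the 10 belonged to the brightest 20% of genes, of which 4.49% were at least 2-fold higher and 4.4% at least 2-fold lower. Of those 7, Slc10a1 and Slco1a4 were past 2-fold. Ratios were positive for 8 of the 10, against 47.8% of all genes and 61.1% of the brightest 20%. The median log2 ratio of the 4 uptake carriers was 1.49, against -0.02 over all genes and 0.12 over the brightest 20%.

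**Figure D1:**
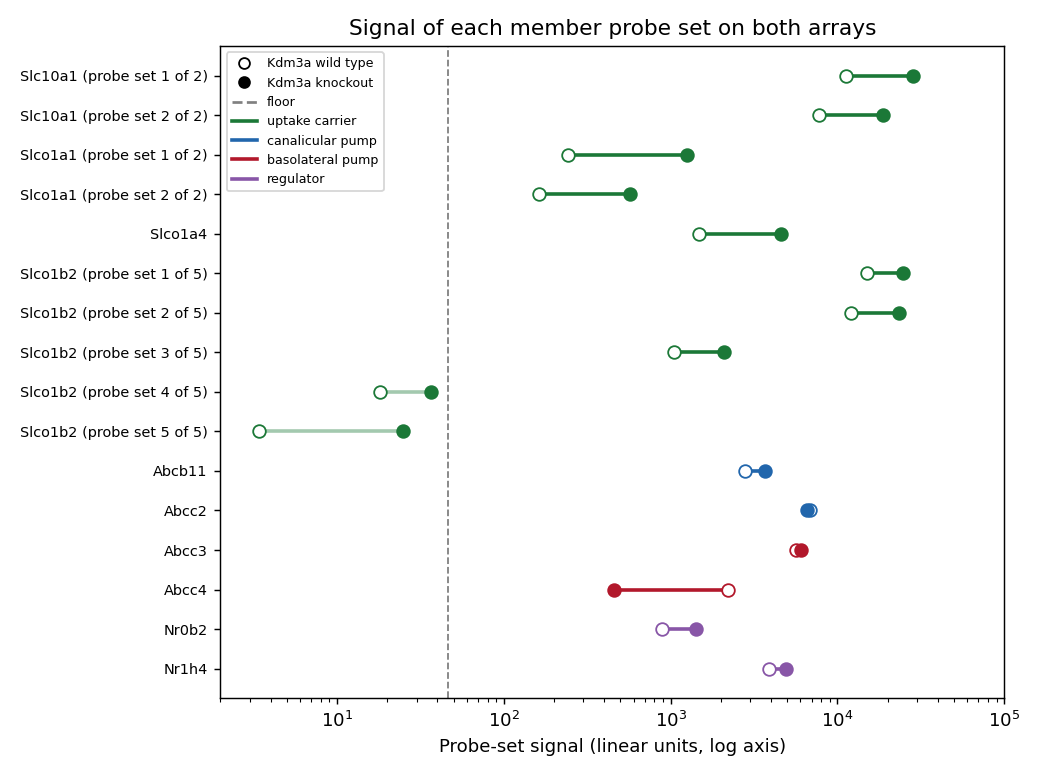
Signal of each of the 16 probe sets on the wild-type array (open points) and the knockout array (filled points), on a log axis, coloured by role; the dashed line is the floor of 46.5, and faint lines join probe sets that did not pass the filter. All uptake carrier points move to the right, Abcc4 moves to the left from 2216 to 459, and the points of Abcc2 and Abcc3 nearly coincide.

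Slc10a1 encodes NTCP, the main sodium-coupled bile acid carrier of the sinusoidal membrane. Its brighter probe set read 11336 on the wild-type array and 28556 on the knockout array, and its other probe set read 7772 and 18827. Both placed the gene among the brightest signals of each array and gave nearly the same difference, 2.52-fold and 2.42-fold higher on the knockout array. The log2 ratios were 1.33 and 1.28, and 98.4% of all genes had a lower ratio than the first.

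Slco1a1 encodes OATP1A1, a sodium-independent carrier known for its higher level in male than in female mouse liver. It was the dimmest of the carriers, with 244.1 on the wild-type array and 1262 on the knockout array by its brighter probe set, and 161.6 and 568.2 by the other. Both probe sets stood above the floor of 46.5 on both arrays, so the differences were measured and not bounds. They were 5.17-fold and 3.52-fold higher on the knockout array, log2 ratios of 2.37 and 1.81. This spread of sizes within 1 gene is of the order of the SD of 0.446 between probe sets of the same gene on these arrays, which covers error within an array alone. Slco1a1 had the highest ratio of the 10 genes, and 99.8% of all genes were lower. The Y-linked Eif2s3y, Uty and Kdm5d read 2468, 814.3 and 459.4 on the wild-type array and 2906, 812.5 and 494.9 on the knockout array. Signal of male-specific genes was thus present on both arrays, and Xist read 83.0 and 72.4. The labels give no sex and no number of animals, and the part of sex in the Slco1a1 difference was not tested.

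Slco1a4 encodes OATP1A4, a carrier of the same subfamily that also takes up cardiac glycosides. Its only probe set read 1483 on the wild-type array and 4619 on the knockout array. The knockout signal was 3.11-fold higher, a log2 ratio of 1.64 that exceeded the ratios of 99.3% of all genes. With 1 probe set there was no second reading of this difference.

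Slco1b2, which encodes OATP1B2, the hepatocyte carrier closest to the human OATP1B proteins, had 5 probe sets. The brightest read 15149 on the wild-type array and 24825 on the knockout array, the next 12082 and 23290, and the third 1048 and 2100. All 3 were higher on the knockout array, by 1.64-fold, 1.93-fold and 2.004-fold, or log2 ratios of 0.71, 0.95 and 1.003. The remaining 2 probe sets, at 18.2 and 36.7 and at 3.43 and 25.0, lay below the floor on both arrays and gave no ratio. The gene thus lay within 2-fold by its brightest probe set and at 2-fold by its dimmest measured one.

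The 3 Slco genes lie in 1 cluster, in the order Slco1c1, Slco1b2, Gm5724, Slco1a4, Slco1a1, Gm6614, Slco1a6 and Slco1a5 in the RefSeq gene table. Signal in this cluster was confined to the 3 members among the genes that had a named probe set. Slco1c1 read 22.5 and 38.0, Slco1a6 read 6.51 and 46.0, and the 2 probe sets of Slco1a5 read at most 18.4, all below the floor on both arrays. Gm5724 and Gm6614 had no named probe set. The Slco1a genes are close in sequence, so probes of one could read another. Beyond the cluster, Pyroxd1 read 334.1 and 336.9, a log2 ratio of 0.01, and the 3 kept probe sets of Recql had ratios of -0.76, 0.11 and 0.12.

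**Figure D2:**
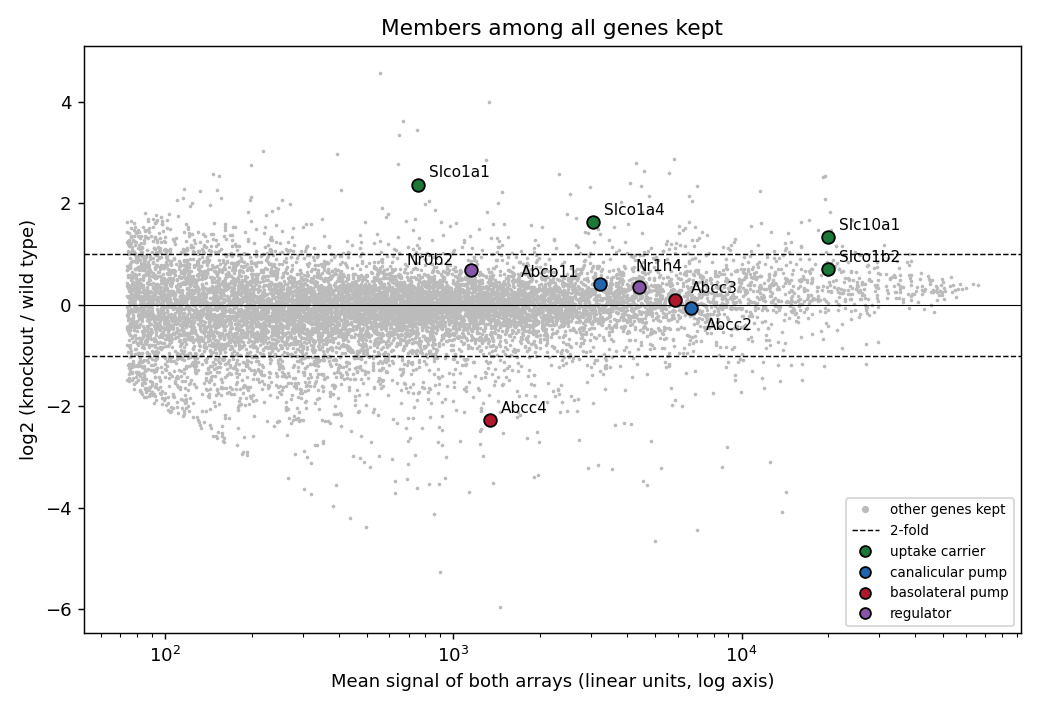
Log2 ratio of knockout over wild type against mean signal of both arrays for 11693 genes (grey) and the 10 members (coloured by role); dashed lines mark 2-fold. Slco1a1, Slco1a4 and Slc10a1 lie above the upper line, Abcc4 lies below the lower line at -2.27, and the other 6 lie between the lines.

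Among the canalicular pumps, Abcb11, the bile salt export pump, read 2785 on the wild-type array and 3687 on the knockout array. It was 1.32-fold higher on the knockout array, a log2 ratio of 0.40 that lay 0.0044 above the median of the hepatocyte markers. Abcc2, or MRP2, which exports bilirubin glucuronides and glutathione conjugates into bile, read 6822 and 6531. Its log2 ratio was -0.06, with 46.9% of all genes lower. Each pump was read by 1 probe set, and that of Abcc2 carries a name ending that can mark a match to further transcripts.

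The basolateral pumps differed from each other. Abcc3, or MRP3, which returns glucuronides to the blood, read 5659 on the wild-type array and 6072 on the knockout array, a log2 ratio of 0.10. Abcc4, or MRP4, which exports bile acids together with glutathione and is also known to export cyclic nucleotides, read 2216 on the wild-type array and 459.1 on the knockout array. The knockout signal was 4.83-fold lower, a log2 ratio of -2.27, and 0.983% of all genes had a lower ratio. The ratios of Abcc3 and Abcc4 differed by 2.37 on the log2 scale. This difference does not depend on a constant scaling of the arrays, but each gene rests on 1 probe set.

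Of the regulators, Nr0b2, the repressor SHP, read 885.2 on the wild-type array and 1419 on the knockout array. It was 1.60-fold higher, a log2 ratio of 0.68. Nr1h4, the receptor FXR, read 3882 and 4952, a log2 ratio of 0.35. Both lay within 2-fold and on the side of the uptake carriers. The ratios of Nr0b2 and Slco1b2 differed by 0.03, which is far below the SD of 0.446 between probe sets of a gene. From lowest to highest, the log2 ratios thus ran from Abcc4 through Abcc2, Abcc3, Nr1h4, Abcb11, Nr0b2, Slco1b2, Slc10a1 and Slco1a4 to Slco1a1. Of the steps in this order, those from Abcc4 to Abcc2, from Slco1b2 to Slc10a1 and from Slco1a4 to Slco1a1 were larger than that SD, at 2.21, 0.62 and 0.73. The first rests on 1 probe set per gene. That SD is of a single ratio, and a difference of 2 ratios spreads more, so it is a lenient measure for a step. With the mean of all kept probe sets of each gene, the step from Slco1b2 to Slc10a1 was 0.42, below the SD, and by its dimmer probe set Slco1a1 was 0.18 above Slco1a4.

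Hepatocyte markers were also higher on the knockout array, and the size of the difference could be set against theirs. Slco1a1, Slco1a4 and Slc10a1 had ratios above the highest of the 12 markers, that of the tyrosine aminotransferase Tat (1.22). For Slc10a1, at 1.33 and 1.28 by its 2 probe sets, this excess was far below the SD of 0.446 between probe sets of a gene. Relative to the marker median of 0.40, Slco1a1 was higher by 1.97 on the log2 scale, Slco1a4 by 1.24, Slc10a1 by 0.93 and Slco1b2 by 0.31, while Abcc2 stood at -0.46, Abcc3 at -0.30 and Abcc4 at -2.67. In whole tissue, fewer cells of a type and less RNA per cell cannot be told apart.

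The members past 2-fold kept their direction under each scaling, while Abcc2 and Abcc3, with ratios near 0, did not. The median log2 ratio over all genes was -0.02 as deposited, -0.16 with the arrays scaled on their hybridisation controls and 0.16 on their poly-A controls, so that the background past 2-fold was 2.62% higher and 10.9% lower under the first and 6.05% higher and 6.63% lower under the second. The members past 2-fold numbered 3 higher and 1 lower under each of the 5 scalings. Across all alternatives that gave a ratio, Slco1a1 ranged from 2.09 to 2.55, Slco1a4 from 1.51 to 1.82, Slc10a1 from 1.13 to 1.52 and Abcc4 from -2.40 to -2.09. Abcc2 changed sign on the poly-A scale (0.12) and Abcc3 on the scale of the hybridisation controls (-0.03).

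**Figure D3:**
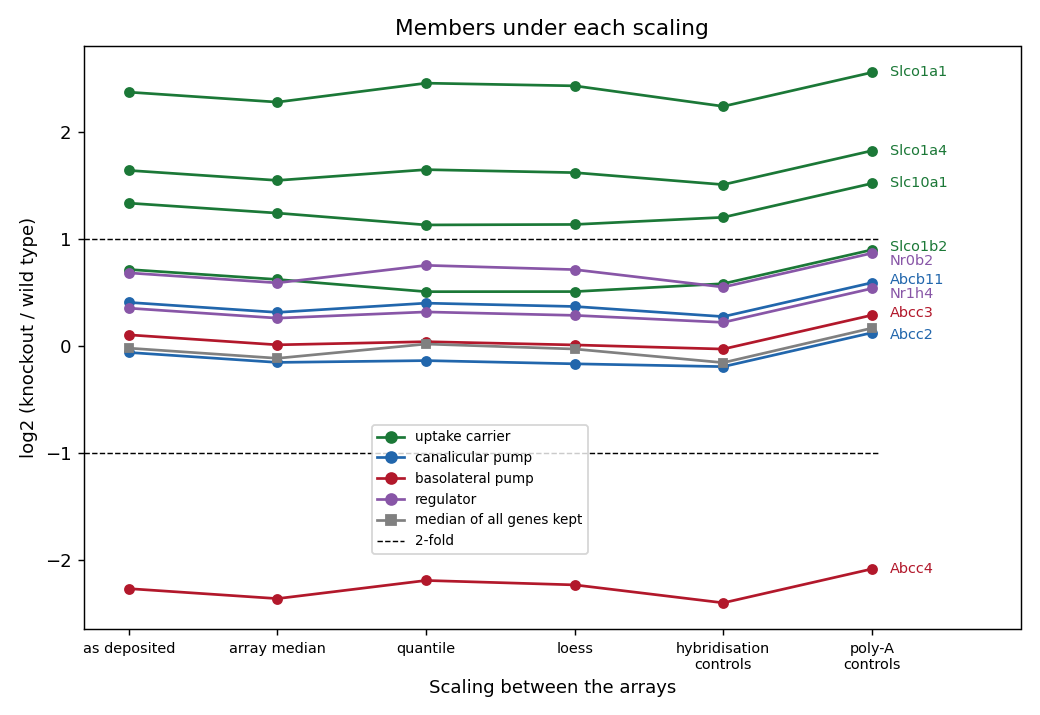
Log2 ratio of knockout over wild type for the 10 members (lines coloured by role) and for the median of all genes (grey) with the arrays as deposited and under 5 other scalings; dashed lines mark 2-fold. Slco1a1, Slco1a4 and Slc10a1 stay above the upper line, Abcc4 stays below the lower line, and Nr0b2 passes Slco1b2 after quantile normalization and loess.

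The other genes of bile acid transport were listed by role. Beside the counts of these and the later lists, 3.83% of all genes were at least 2-fold higher and 8.96% at least 2-fold lower. Of 18 further uptake carriers, 10 were measured, with 1 past 2-fold on the lower side and 0 on the higher and a median log2 ratio of 0.16. The highest were Slc22a30 (0.80) and the organic anion transporter Slc22a7 (0.77), and the lowest were Slco3a1 (-1.56) and Slc22a27 (-0.79). Slco2b1, an organic anion carrier of the same family, read 3632 and 5575, a log2 ratio of 0.62. Of 14 further pumps, flippases and exporters, 11 were measured, of which 1 was higher and 1 lower, with a median of 0.04. Abcc6 (1.32) and the sterol exporter subunit Abcg5 (0.72) were highest, and Abcc1 (-1.95), a relative of Abcc4, and Abcc5 (-0.82) were lowest. The 4 kept probe sets of Abcc5 ranged from -0.89 to -0.06. Abcc1 read 311.1 on the wild-type array and 80.8 on the knockout array. The canalicular phospholipid flippase Abcb4 read 7687 and 5945, a log2 ratio of -0.37, so the canalicular pumps lay within 2-fold on either side.

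Of 24 further regulators, 18 were measured, with a median of 0.22, and 2 of them were past 2-fold on the higher side and 0 on the lower. The higher genes were Onecut1 (1.34), whose 2 probe sets disagreed (-0.87 and 1.34), and Nr1i3 (1.25), which encodes the xenobiotic receptor CAR and read 1819 and 4322. Ncoa1 (-0.81) and Nfe2l2 (-0.42), which encodes the oxidative stress factor Nrf2, were lowest, and their probe sets also went both ways. Hnf4a, a central hepatocyte factor, stood at 0.50 by the brightest of 4 probe sets, which ranged from -0.33 to 0.80. Of 17 measured genes of bile acid synthesis and conjugation, 3 were past 2-fold on the higher side and 0 on the lower, the median was 0.44, and 16 of the 17 belonged to the brightest 20% of genes. Sult2a8 (2.09), a bile acid sulfotransferase, Cyp7b1 (2.05), of the alternative pathway, and Slc27a5, which joins bile acids to coenzyme A (1.15), were the higher genes. Cyp39a1 (-0.38) and Acox2 (-0.11) were lowest, and Cyp7a1, the rate-limiting enzyme of the classic pathway, read 4714 and 8390, a log2 ratio of 0.83.

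**Figure D4:**
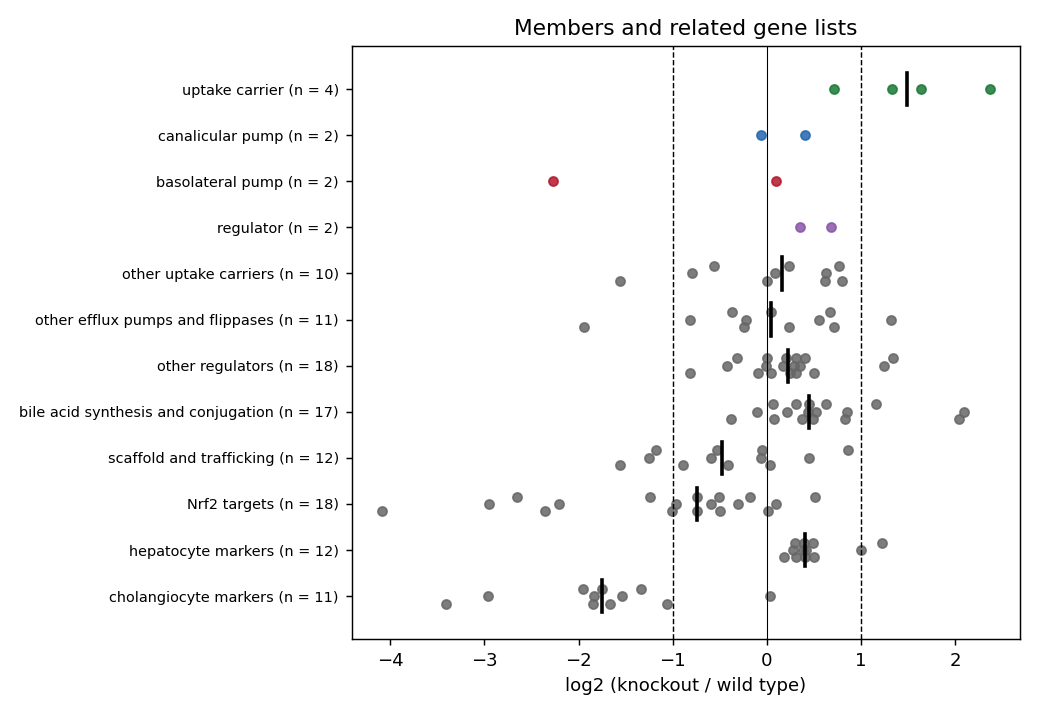
Log2 ratio of knockout over wild type for each measured gene of the 4 member roles (coloured) and of 8 related lists (grey), 1 point per gene; black bars are medians of lists with at least 3 genes and dashed lines mark 2-fold. The uptake carriers lie from 0.71 to 2.37, while cholangiocyte markers lie mostly left of the lower line.

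Most targets of Nrf2 and most markers of bile duct cells differed in the same direction as Abcc4. Abcc3 and Abcc4 are themselves known to be induced through Nrf2, and their log2 ratios were 0.10 and -2.27. Of 18 measured Nrf2 targets, 7 were past 2-fold on the lower side, 0 on the higher and 11 within 2-fold. Their median was -0.74, and 3 had ratios above 0. Gstm3 (-4.09), which has close relatives, and the cystine carrier Slc7a11 were lowest, and Gsta4 (0.51) and Gstp1 (0.09) were highest. By its brightest probe set, Slc7a11 was at least 7.73-fold lower, from 359.5 to a value below the floor. Its other kept probe set gave a smaller difference, a log2 ratio of -1.27. Cholangiocyte markers, 11 of which were measured, had 10 past 2-fold on the lower side and 0 on the higher, with a median of -1.75. Their summed signal was 8657 on the wild-type and 1777 on the knockout array. The defining marker Krt19 read 245.5 and 63.4, and Epcam 588.3 and 175.2 by its brightest probe set. The 2 kept probe sets of Epcam gave log2 ratios of -1.75 and -0.08, and the 3 of Tspan8 ranged from -2.96 to 0.69. The other cholangiocyte markers with several kept probe sets were lower by each of them. Of 14 stellate cell and fibroblast markers, 8 were lower and 0 higher, with summed signals of 43233 and 21255. Of 12 endothelial markers, 1 was lower and 0 higher, with summed signals of 10662 and 9993. Of 15 macrophage markers, 6 were lower, and 3, Cd163, Marco and Timd4, were above the floor on the knockout array alone. The part of Nrf2 or of these cell types in the difference of Abcc4 was not tested.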

How the data were processed

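Per the labels' protocols, liver RNA was converted to biotin-labelled cRNA for Affymetrix arrays. The deposited numbers are linear intensity values, 1 per probe set. MAS5 is named in the submitters' processing notes; for its settings and a genome build, what was used is not given in the sources used here. Trimming 2% of values from either tail left a mean of 500.004 on each array, which shows that the arrays had been brought to 1 scale by the authors.

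Of 45101 probe sets, 34945 named 1 gene, 932 several and 9160 none in the platform annotation, and 64 were controls. Names were updated through RefSeq (GRCm38.p6), in which 34741 were found by gene identifier. Values below 46.5, the 40th percentile of all values, were raised to that floor, and probe sets with a mean signal of at least 73.7, the median, were kept (14 of the 16 member probe sets). A gene took its brightest kept probe set. Genes were counted at 2-fold, with no test, since there was 1 array per group. All members and up to 2 highest and 2 lowest genes of each transport, regulator, synthesis, scaffold and Nrf2 list were named. Slc27a5 and Bsg were named beyond this rule, as further genes past 2-fold in their lists. Members and lists were chosen with earlier results of these data known. Slco2b1, Abcb4, Hnf4a, Cyp7a1, Krt19, Epcam, Tspan8, Tat, Uty, Kdm5d, Xist, Pyroxd1, Recql and the macrophage markers were named after their values were seen. Python 3.11.15, pandas 2.3.3 and statsmodels 0.14.6 (loess, span 0.3) were used, and the steps were tested on simulated data.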

Additional observations from a re-analysis of the deposited data

How the results depend on the processing

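The counts of members at least 2-fold higher (3) and lower (1) were the same under 12 alternatives of scaling, floor, filter and choice of probe sets. With a size rule of 1.5-fold, 5 members were higher, Slco1b2 and Nr0b2 being added, and 1 was lower, beside 11.1% and 17.4% of all genes. At 3-fold, 2 were higher and 1 lower, beside 0.872% and 3.50% of all genes. The median log2 ratio of the uptake carriers ranged from 1.35 with scaling on the hybridisation controls to 1.67 with scaling on the poly-A controls. Of 119 member ratios recomputed under these 12 alternatives, 119 moved by less than the SD of 0.446 between probe sets of a gene. The floors and filters left every member ratio as it was, and constant scalings shifted all members alike by a small amount. The unchanged counts and ratios under those alternatives followed from the settings and say little about stability. Abcc4 had the lowest ratio of the members in 12 of 12 alternatives. Every uptake carrier lay above every other member in 10 of 12. Constant scalings, floors and filters could not change this order, and Slco1b2 stayed 0.03 above Nr0b2 under each of them. Only quantile normalization, loess and the choice of probe sets could change it. After quantile normalization and loess, Slco1b2 lay below Nr0b2, by -0.25 and -0.21 on the log2 scale, and the cause was not tested. Abcc2 had no value without probe sets whose names mark possible matches to further transcripts. No paired analysis was possible because each group had 1 array. The lowest member signal used for a gene was 5.25 times the floor, so no member ratio was a bound.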

Other observations

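Genes that anchor or traffic transporters to their membrane were measured for 12 of 12 listed, of which 0 were at least 2-fold higher and 3 lower in the knockout array, with a median log2 ratio of -0.47. Moesin (Msn, -1.56), the linker of actin to the membrane in many non-epithelial cells, the lactate carrier Slc16a1 (-1.25) and its partner Bsg (-1.17) were the lower genes. The other kept probe set of Msn, at -0.90, lay within 2-fold. The scaffold gene Slc9a3r1 (0.86) and radixin (Rdx, 0.44), which holds canalicular Abcc2 in place, were highest, and Slc9a3r1 read 9331 on the wild-type and 16954 on the knockout array. Pdzk1, the scaffold known to keep the Slco1a1 protein at the membrane, read 1204 and 1229, a log2 ratio of 0.03, beside a ratio of 2.37 for Slco1a1 itself. The 2 kept probe sets of ezrin (Ezr) gave opposite directions, at -0.89 and 3.16, and the 3 of Rdx ranged from -0.02 to 1.01. These genes were chosen with earlier results of these data known, and Pdzk1 and Ezr were named after their values were seen.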
